A study of Homo sapiens with 20 samples.

Results

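The E2F, MYB and FOXM1 factors are transcription factors that switch on, or hold back, the genes of DNA replication and mitosis. This account covers 10 of their genes: the activators E2F1, E2F2 and E2F3, the repressor E2F5, the atypical repressors E2F7 and E2F8, the DNA-binding partner TFDP1, the MYB family members MYBL1 and MYBL2, and FOXM1. They were chosen by symbol, from the probe sets annotated to exactly 1 of these genes. The choice was made with earlier results of these data known, so counts of these factors give no independent support. Of 41091 such probe sets on the array, 20 name 1 of the 10 genes, and the brightest probe set of each gene stands for it, as for all 19775 genes measured. All 10 genes reached a mean log2 intensity of 6, the level below which a group is called dim here, in at least 1 group, so all are described. With siLSD1, 7 of the 10 fell in both prostate cancer lines, where 5.64% of all genes did, E2F5 rose in LNCaP, and E2F1 and E2F3 passed in neither line. When each gene's probe sets were averaged, 5 factors fell in C42B, since MYBL1 and E2F2 no longer passed there.

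The 20 arrays hold 6 groups of human prostate cancer cells. LNCaP is an androgen-responsive line from a lymph node metastasis, and C42B is a castration-resistant line derived from it. C42B siLSD1 and C42B siNTC (3 arrays each) had siRNA for 6 h, followed by 96 h in RPMI with 10% CSS, a charcoal-stripped serum low in steroid hormones. LNCaP siLSD1 and LNCaP siNTC (3 arrays each) received 50 nM siRNA with Dharmafect 3 and grew for 96 h in RPMI with 10% fetal bovine serum (FBS), so the lines differ in medium as well as in origin. C42B DHT and C42B Veh+ (4 arrays each) spent 72 h in medium with 10% CSS and then 16 h with 100 nM of the androgen dihydrotestosterone or an equal volume of ethanol. LSD1 is the histone lysine demethylase encoded by KDM1A. A single siLSD1 label is given in each, and RNA of the LNCaP replicates came from pooled pairs of wells. For C42B the replicates came from separate wells. No label says that the wells were set up independently, so the p-values may reflect technical spread only.

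In a resting cell, the pocket proteins of the retinoblastoma family hold E2F-DP dimers in a repressive state, together with the MuvB core (the DREAM complex). Cyclin-dependent kinases release them on entry into the cycle, E2F1, E2F2 and E2F3 with a DP partner then drive genes of the G1/S transition, and E2F7 and E2F8 shut these genes down again later in S phase. B-MYB (MYBL2) takes over the MuvB core in S phase, FOXM1 joins it in G2, and both drive genes of mitosis. Several of these factors are themselves E2F targets, so their transcripts are known to follow the share of cycling cells. In bulk RNA, fewer cycling cells and less of a transcript per cycling cell cannot be told apart, which holds for every change below.

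Promoters of 4 of the factors are shown because these genes differ both in how they moved and in the E2F words they hold. RefSeq (GRCh38.p14) supplied a window of 300 bases, from 250 bases before the start site to 50 after it, for 6 of the 10 genes (E2F3 with 2 windows). Capitals mark the E2F words TTCCCGC or TTCGCGC or TTGCCGC or TTGGCGC on either strand, and no marked words overlapped.
E2F1, chr20:33686336-33686635, minus strand: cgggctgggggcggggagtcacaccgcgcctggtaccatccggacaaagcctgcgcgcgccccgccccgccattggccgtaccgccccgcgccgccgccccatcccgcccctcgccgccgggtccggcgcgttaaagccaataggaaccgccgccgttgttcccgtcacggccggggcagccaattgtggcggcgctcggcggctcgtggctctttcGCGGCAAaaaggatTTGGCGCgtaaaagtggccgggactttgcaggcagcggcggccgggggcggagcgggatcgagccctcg
E2F2, chr1:23531184-23531483, minus strand: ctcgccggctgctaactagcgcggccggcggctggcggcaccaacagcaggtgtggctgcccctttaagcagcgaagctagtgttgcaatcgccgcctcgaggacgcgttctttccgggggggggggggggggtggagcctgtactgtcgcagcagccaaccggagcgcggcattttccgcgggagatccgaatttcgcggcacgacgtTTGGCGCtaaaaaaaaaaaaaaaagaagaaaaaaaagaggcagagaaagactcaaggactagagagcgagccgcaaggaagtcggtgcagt
E2F7, chr12:77065520-77065819, minus strand: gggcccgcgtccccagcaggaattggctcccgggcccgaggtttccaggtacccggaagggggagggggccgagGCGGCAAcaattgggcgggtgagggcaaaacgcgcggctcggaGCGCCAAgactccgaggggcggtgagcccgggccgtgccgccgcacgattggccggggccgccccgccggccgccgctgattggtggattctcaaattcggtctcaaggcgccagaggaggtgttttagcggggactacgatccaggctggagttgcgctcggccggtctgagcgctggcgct
MYBL2, chr20:43666864-43667163, plus strand: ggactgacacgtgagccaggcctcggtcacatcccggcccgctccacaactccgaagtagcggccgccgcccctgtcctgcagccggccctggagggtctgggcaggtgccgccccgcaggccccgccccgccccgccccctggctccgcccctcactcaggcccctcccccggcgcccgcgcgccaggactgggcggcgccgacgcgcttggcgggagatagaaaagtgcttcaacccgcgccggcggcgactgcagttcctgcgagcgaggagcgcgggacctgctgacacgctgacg
Such a word stood in 5 of the 7 windows, those of E2F1, E2F2, E2F7, TFDP1 and 1 of the 2 of E2F3, against 13.0% of 35116 promoter windows of this length. E2F1, whose transcript did not pass with siLSD1 in either line, held words 33 and 19 bases before the start site. E2F2, which fell in both lines, held 1 word 41 bases before it, and E2F7, which fell further, held 2 at 176 and 133 bases. The MYBL2 window held none of these 4 words. It did hold ttggcgg, which differs from TTGGCGC only in its last base. A window without these words may therefore still hold an E2F site. Near matches also stand in windows with marked words, such as ttcgcgg in that of E2F2. They were not counted in any window. CCAAT, on either strand, occurred 4 times in E2F7, 4 times in 1 window of E2F3 and 3 times in E2F1, against a share of 34.6% of all windows with at least 1. The cell cycle homology words TTTGAA and TTCGAA occurred once, in E2F3 (16.4% of all windows), and the forkhead word TAAACA in none of the 7 (12.3% of all windows). These matches describe letters and not occupied sites.

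Array medians of intensity ran from 63.3 to 86.1. Because the distributions separate by experiment, levels are compared only between groups of the same experiment, and the 6 groups are not put in 1 order. KDM1A had log2 intensities of 8.03, 7.83 and 7.80 with siLSD1 in C42B, against 10.29, 10.37 and 10.21 with siNTC, and 7.26, 7.40 and 7.25 with siLSD1 in LNCaP, against 9.95, 10.05 and 10.23 with siNTC. Every siLSD1 array was lower than any siNTC array, with a log2 fold change of −2.40 ± 0.08 in C42B and −2.78 ± 0.08 in LNCaP (SE, adjusted p = 1.2e-05 and 2.4e-06). The luminal genes measured (8 of the 10 listed) had group means of at least 7.64 in every group, KLK2 of C42B Veh+ being the lowest. Of these 8, 4 rose with siLSD1 in each line (KLK2, KLK3, TMPRSS2 and SLC45A3), SLC45A3 by 1.19 ± 0.06 in C42B and 0.69 ± 0.06 in LNCaP. Over all genes, 8.66% rose in C42B and 13.4% in LNCaP. Of 12 stromal, endothelial and leukocyte markers, 7 were dim in both groups of each siRNA experiment. In C42B their summed intensity lay between 953 and 1128 on the siLSD1 arrays and between 1005 and 1088 on the siNTC arrays, and in LNCaP between 897 and 927 (siLSD1 arrays) and between 918 and 1018 (siNTC arrays), with overlap in both lines. Among them COL3A1 fell in LNCaP (−0.77 ± 0.13) and with DHT (−1.60 ± 0.10). Its DHT mean of 5.60 was dim, against 7.20 with vehicle, so the fall with DHT is not a measured size. As a measure of RNA quality, the log2 difference between 3′ and 5′ actin control probe sets lay at 1.17 to 1.31 for C42B siLSD1 and at 1.13 to 1.19 for C42B siNTC, and at 0.93 to 1.09 for LNCaP siLSD1 and 0.82 to 0.98 for LNCaP siNTC, again with overlap. The part of these markers and of RNA quality in the results was not tested.

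The siRNA experiments ask which transcripts change when LSD1 is targeted, without steroids in C42B and with full serum in LNCaP. In C42B, 7 of the 10 factors fell (E2F2, E2F7, E2F8, TFDP1, MYBL1, MYBL2 and FOXM1) and none rose, where 9.39% of all genes fell and 8.66% rose. In LNCaP the same 7 fell and E2F5 rose, where 12.5% of all genes fell and 13.4% rose. Lower in both lines were 5.64% of all genes, 1116 of 19775. Since the factors were chosen with earlier results of these data known, setting them beside these shares is not an independent test. The median log2 fold change of the 10 factors was −0.44 in C42B and −0.61 in LNCaP, beside medians over all genes of −0.017 and 0.011. Calls were made at an adjusted p below 0.05 (limma, Benjamini-Hochberg over all genes), and 18% of genes were called in C42B and 25.9% in LNCaP in either direction. Groups did not overlap for 7 lower factors and 1 higher factor (E2F5) in each line. Over all genes, the shares not overlapping were 19.9% lower and 16.3% higher in C42B, and 19.5% lower and 20.6% higher in LNCaP. The effect of the siRNA's own sequence cannot be told apart from that of lower LSD1.

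**Figure D1:**
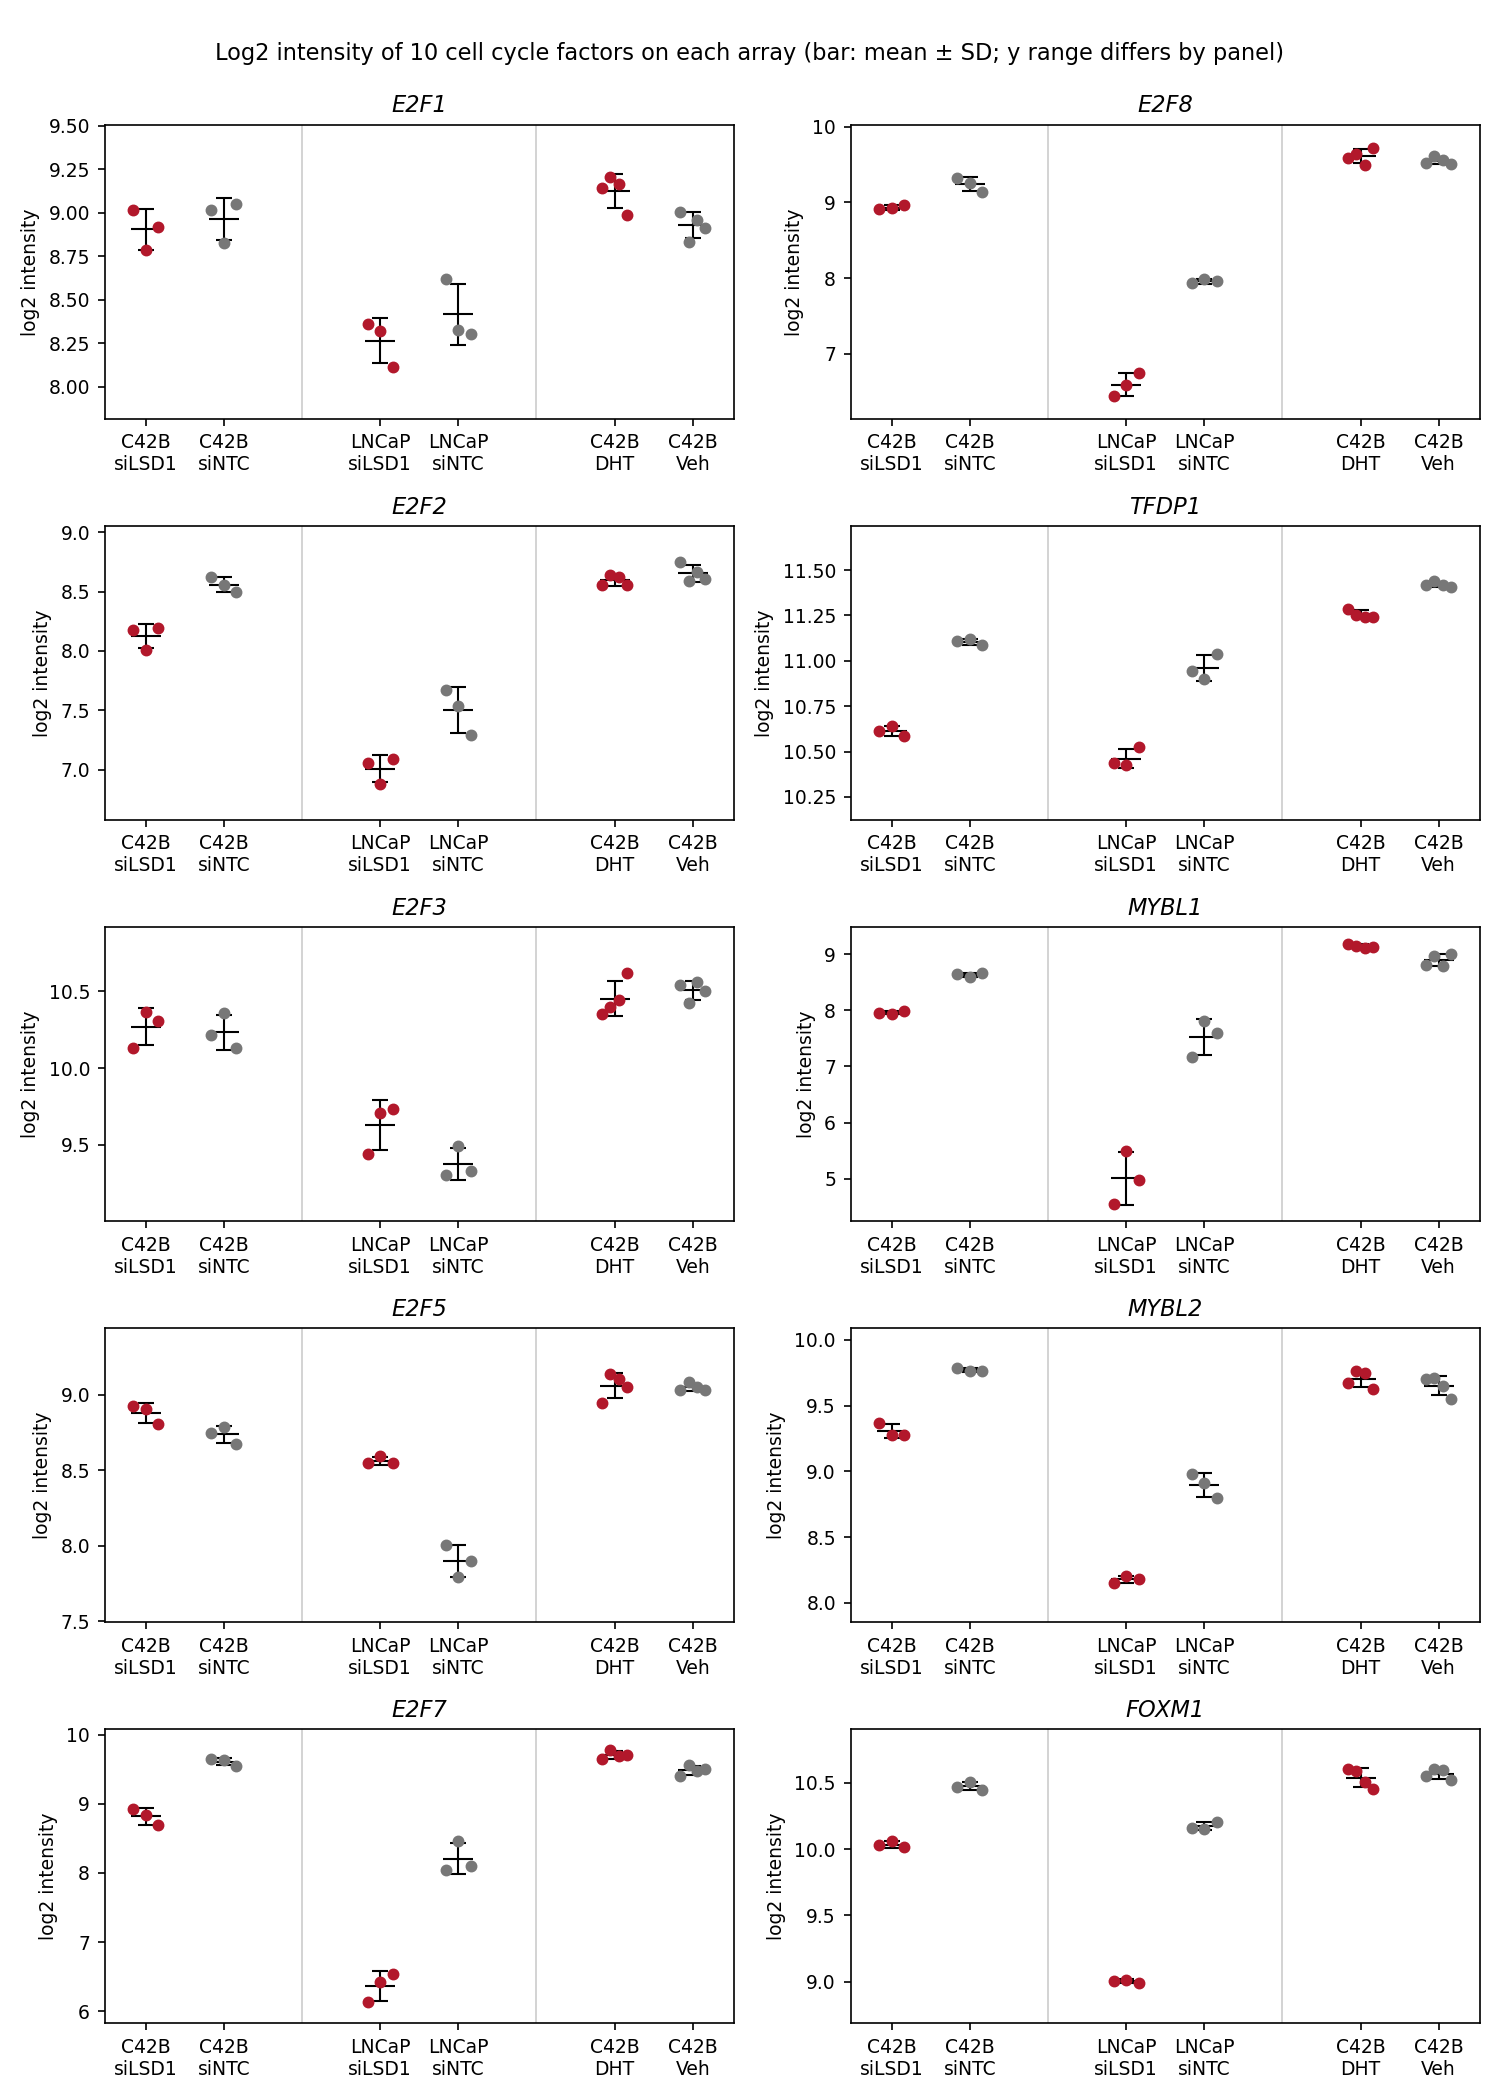
Log2 intensity (y axis, range set per panel) of the 10 factors on each of the 20 arrays, by group (x axis), with siLSD1 or DHT in red and siNTC or vehicle (Veh+) in grey; black bars show the mean ± SD. The red and grey points do not overlap in either siRNA experiment for E2F2, E2F7, E2F8, TFDP1, MYBL1, MYBL2 and FOXM1, and red lies above grey for E2F5.

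The activator E2Fs did not move as a group. E2F1, the founding member, had log2 intensities of 9.02, 8.78 and 8.92 with siLSD1 in C42B, against 9.01, 8.83 and 9.05 with siNTC. In LNCaP it had 8.36, 8.32 and 8.12 with siLSD1, against 8.62, 8.33 and 8.30 with siNTC. The groups overlapped in both lines, and the log2 fold changes were −0.06 (95% interval −0.25 to 0.14, adjusted p = 0.71) and −0.15 (−0.39 to 0.09, adjusted p = 0.35). E2F2 behaved differently. Its values were 8.18, 8.01 and 8.20 with siLSD1 in C42B, against 8.62, 8.56 and 8.50 with siNTC (log2 fold change −0.43 ± 0.07 (SE), adjusted p = 0.0051). In LNCaP they were 7.06, 6.88 and 7.09 with siLSD1, against 7.67, 7.53 and 7.29 with siNTC (log2 fold change −0.49 ± 0.10 (SE), adjusted p = 0.0094). Every siLSD1 array lay below every siNTC array in both lines, a fall of 25.9% in C42B and 28.8% in LNCaP. E2F3 had 10.13, 10.37 and 10.31 with siLSD1, against 10.22, 10.36 and 10.13 with siNTC in C42B, groups that overlapped (log2 fold change 0.03 ± 0.08 (SE), adjusted p = 0.83, 95% interval −0.16 to 0.23). In LNCaP it had 9.44, 9.71 and 9.73 with siLSD1, against 9.30, 9.49 and 9.33 with siNTC. Here siLSD1 replicate 1 lay within the siNTC range and the other two above it (log2 fold change 0.25 ± 0.09 (SE), adjusted p = 0.087, 95% interval 0.04 to 0.47). Without that array E2F3 passed as higher in LNCaP (0.35, adjusted p = 0.022), and it also passed in the fits with quantile normalization, with trend and robust, and with all 20 arrays (0.25 to 0.29, adjusted p of 0.036 to 0.038).

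Among the repressors, E2F5 and the atypical pair went opposite ways in LNCaP. E2F5, which works with pocket proteins in resting cells, had 8.551, 8.593 and 8.545 with siLSD1 in LNCaP, against 8.004, 7.793 and 7.896 with siNTC. All siLSD1 arrays were higher, by 58.6% (log2 fold change 0.67 ± 0.07 (SE), adjusted p = 0.00022). In C42B it had 8.93, 8.91 and 8.80 with siLSD1, against 8.75, 8.79 and 8.67 with siNTC; the groups did not overlap, but the difference did not pass (log2 fold change 0.14 ± 0.06 (SE), adjusted p = 0.14). E2F7, which represses G1/S genes without a DP partner, had 8.93, 8.84 and 8.69 with siLSD1 in C42B, against 9.64, 9.64 and 9.55 with siNTC (log2 fold change −0.79 ± 0.07 (SE), adjusted p = 0.00068). Its fall of 42.3% was the largest of the 10 factors in C42B. In LNCaP it had 6.12, 6.42 and 6.54 with siLSD1, against 8.05, 8.47 and 8.11 with siNTC, a fall of 72.2% (log2 fold change −1.84 ± 0.14 (SE), adjusted p = 4.6e-05). E2F8, the closest relative of E2F7, had 8.91, 8.92 and 8.97 with siLSD1 in C42B, against 9.32, 9.26 and 9.14 with siNTC (log2 fold change −0.31 ± 0.06 (SE), adjusted p = 0.012). The LNCaP values of E2F8 were 6.44, 6.59 and 6.74 with siLSD1, against 7.93, 7.99 and 7.96 with siNTC (log2 fold change −1.37 ± 0.08 (SE), adjusted p = 1.9e-05). The fall was thus 19.3% in C42B, the smallest of the 7 that passed there, and 61.3% in LNCaP.

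TFDP1 encodes DP1, the partner that E2F1 to E2F6 need to bind DNA. It had 10.62, 10.64 and 10.59 with siLSD1 in C42B, against 11.11, 11.12 and 11.09 with siNTC (log2 fold change −0.49 ± 0.05 (SE), adjusted p = 0.00083). The LNCaP values of TFDP1 were 10.44, 10.42 and 10.52 with siLSD1, against 10.94, 10.90 and 11.04 with siNTC (log2 fold change −0.50 ± 0.06 (SE), adjusted p = 0.00066). Replicates lay close together, within 0.14 of each other in each group, and the fall was 28.8% in C42B and 29.3% in LNCaP.

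By their brightest probe sets, MYBL1, MYBL2 and FOXM1 fell in both lines. No further probe set of MYBL1 passed in either line, and the mean of its probe sets did not pass in C42B (−0.074, adjusted p = 0.33). MYBL1 encodes A-MYB, known in mice for its part in male meiosis. It had 7.96, 7.93 and 7.99 with siLSD1 in C42B, against 8.64, 8.59 and 8.66 with siNTC (log2 fold change −0.67 ± 0.05 (SE), adjusted p = 0.00031). In LNCaP it had 4.55, 5.50 and 4.98 with siLSD1, against 7.17, 7.81 and 7.60 with siNTC. The siLSD1 group of LNCaP was dim, so its fall is given as at least 1.53 on the log2 scale, or at least 2.88-fold, counted from the dim level of 6. The fitted log2 fold change was −2.52 ± 0.24 (SE, adjusted p = 0.00015), with the widest spread between replicates of the 10 factors. MYBL2, B-MYB, had 9.37, 9.27 and 9.27 with siLSD1 in C42B, against 9.79, 9.77 and 9.76 with siNTC (log2 fold change −0.47 ± 0.05 (SE), adjusted p = 0.0013). The LNCaP values of MYBL2 were 8.15, 8.21 and 8.18 with siLSD1, against 8.98, 8.91 and 8.80 with siNTC (log2 fold change −0.72 ± 0.06 (SE), adjusted p = 0.00011). Its falls were 27.7% in C42B and 39.1% in LNCaP, with no overlap of groups. FOXM1 had 10.03, 10.06 and 10.01 with siLSD1 in C42B, against 10.47, 10.50 and 10.44 with siNTC (log2 fold change −0.44 ± 0.05 (SE), adjusted p = 0.0013). The LNCaP values of FOXM1 were 9.01, 9.01 and 8.99 with siLSD1, against 10.16, 10.15 and 10.21 with siNTC (log2 fold change −1.17 ± 0.05 (SE), adjusted p = 8e-06). FOXM1 fell by 26.2% in C42B and 55.6% in LNCaP, and its replicates lay within 0.06 of each other in each of these groups.

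**Figure D2:**
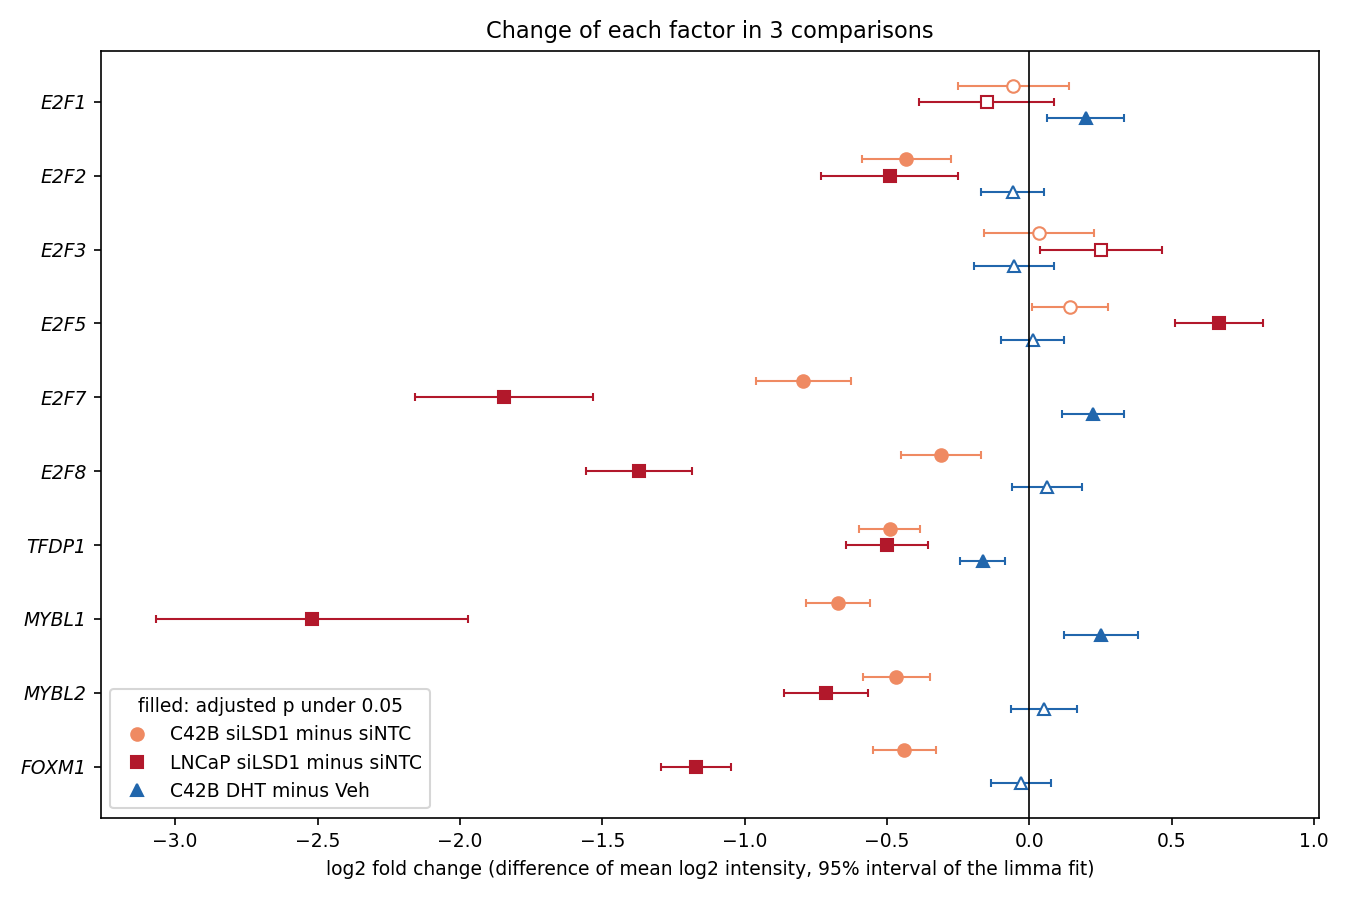
Log2 fold change (x axis) of each factor (y axis) with siLSD1 in C42B (circles), siLSD1 in LNCaP (squares) and DHT in C42B (triangles); lines are 95% intervals of limma's fit and filled symbols passed. In LNCaP E2F7 fell by 1.84 and MYBL1 by at least 1.53, its plotted −2.52 resting on a dim siLSD1 group, while all changes with DHT lie between −0.16 and 0.25.

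The change with siLSD1 was larger in LNCaP for 5 of the factors by the test of the difference itself, a contrast over the 12 siRNA arrays. The difference is given as the log2 fold change in C42B minus that in LNCaP, so a positive value is a smaller fall in C42B. It was 1.85 ± 0.28 for MYBL1 (SE, adjusted p = 0.0011), 1.06 ± 0.10 for E2F8 (adjusted p = 7.5e-05), 1.05 ± 0.17 for E2F7 (adjusted p = 0.0018) and 0.73 ± 0.06 for FOXM1 (adjusted p = 4e-05). That of MYBL1 rests on a dim LNCaP siLSD1 group. These 4 positive calls stand beside 5.56% of all genes (11.6% in either direction). For E2F5, whose rise was larger in LNCaP, it was −0.52 ± 0.09 (adjusted p = 0.0025), 1 negative call beside 6.07% of all genes. MYBL2 did not pass (0.25 ± 0.08, adjusted p = 0.061), but did so at 0.25 to 0.30 in 6 of the alternative fits. TFDP1 fell by nearly the same amount in both lines, with a difference of 0.01 and a 95% interval of −0.15 to 0.17. For E2F2 the interval was −0.23 to 0.35, for E2F1 −0.22 to 0.40 and for E2F3 −0.51 to 0.07. Line, medium, experiment and depth of the knockdown cannot be told apart in these differences. For KDM1A itself the difference was 0.37 ± 0.12 (SE, adjusted p = 0.063), which did not pass. For E2F7 the mean of its probe sets gave a difference of 0.45 (adjusted p = 0.011), and for MYBL1 0.70 (adjusted p = 8.7e-04).

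**Figure D3:**
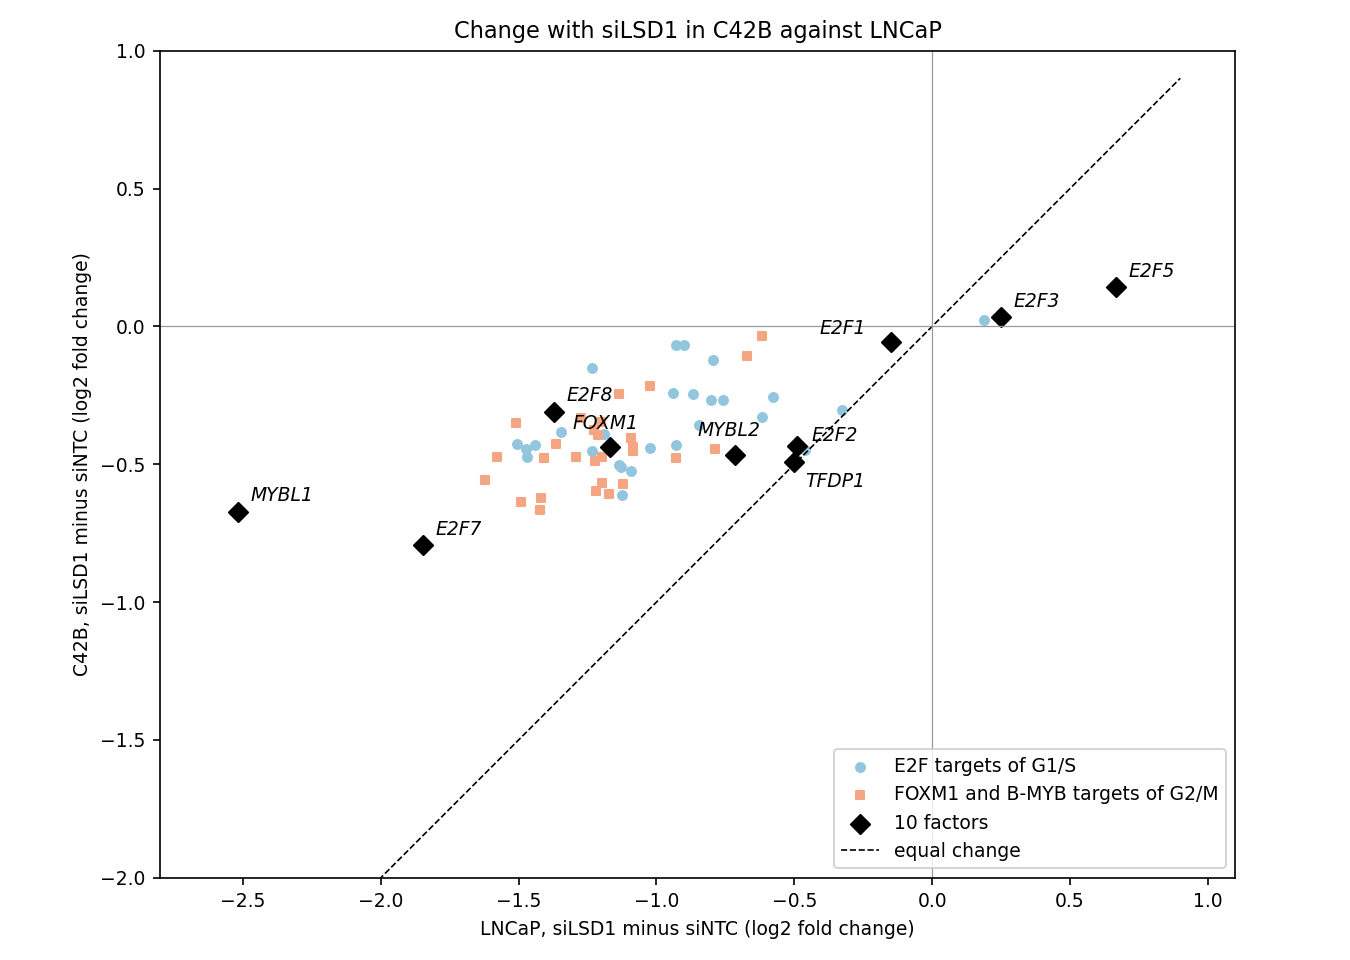
Log2 fold change with siLSD1 in C42B (y axis) against LNCaP (x axis) for the 10 factors (diamonds) and for listed targets of G1/S (circles) and G2/M (squares); the dashed line marks equal change. TFDP1 and E2F2 lie on or near the line, while MYBL1, E2F7, E2F8 and FOXM1 lie far to its left, at larger falls in LNCaP; the LNCaP position of MYBL1 rests on a dim siLSD1 group.

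Probe sets of the same factor did not all agree, which bears most on MYBL1, E2F2 and E2F7. With every 1-gene probe set tested, neither further probe set of MYBL1 passed. In C42B they changed by 0.21 (231268_at, adjusted p = 0.092) and 0.23 (237014_at, dim in both groups, adjusted p = 0.078), against −0.67 for the brightest, 213906_at. In LNCaP they changed by −0.0038 and 0.21, against −2.52 for the brightest, which is dim with siLSD1. The mean of the 3 probe sets no longer passed for MYBL1 in C42B (−0.074, adjusted p = 0.33) and gave −0.77 in LNCaP (adjusted p = 2.5e-04). The second probe set of E2F7, 241725_at, changed by −0.20 in C42B and by −0.05 in LNCaP without passing, and its mean was near the dim level (5.98 with siLSD1 and 6.03 with siNTC in LNCaP). With it averaged in, the fall of E2F7 was −0.50 in C42B and −0.95 in LNCaP, and still passed. For E2F2 the other probe sets, at or below 6.56 in every group, changed by −0.11 and −0.02 in C42B and by −0.14 and −0.12 in LNCaP. Their mean with the brightest no longer passed in C42B (−0.19, adjusted p = 0.083) and did in LNCaP (−0.25, adjusted p = 0.015). A second probe set of TFDP1, 204147_s_at, fell alongside the brightest (−0.41 in C42B and −0.48 in LNCaP, both passing), and the third, 242939_at, did not pass (−0.15 and −0.09). E2F5's second probe set was dim in all groups, and averaging it in gave 0.43 in LNCaP, which passed. The second probe sets of E2F1 (0.06 in C42B and −0.19 in LNCaP) and E2F3 (−0.0014 and −0.06) did not pass either. E2F8, MYBL2 and FOXM1 were each read by 1 probe set, and that of FOXM1 carries the suffix that marks probes shared with other sequences.

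**Figure D4:**
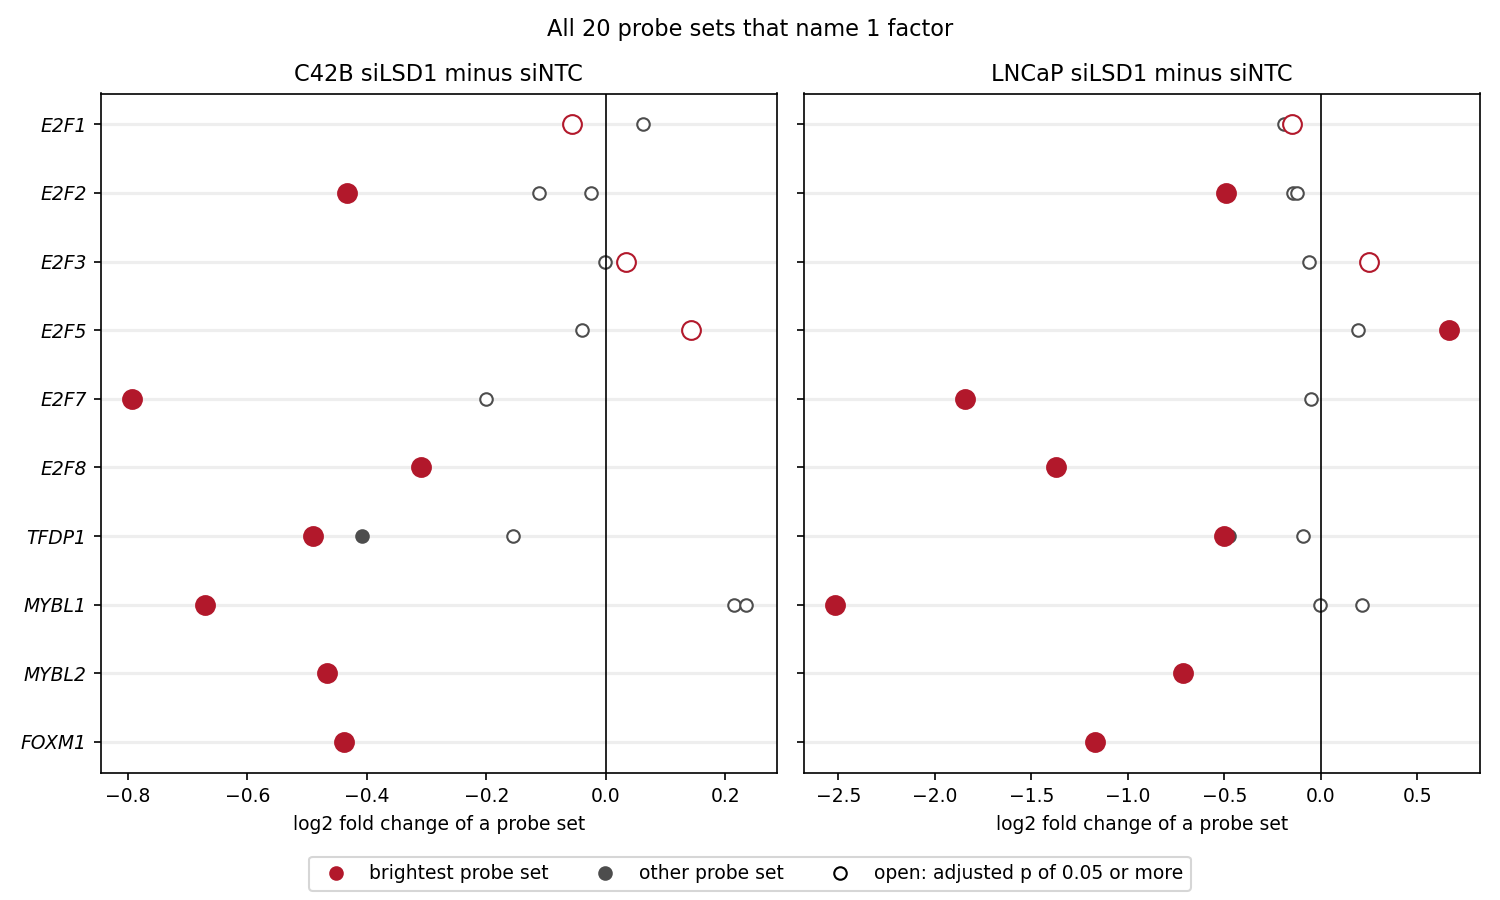
Log2 fold change with siLSD1 (x axis, scale set per panel) of all 20 probe sets that name 1 factor, by gene (y axis), in C42B (left) and LNCaP (right); red marks the brightest probe set, grey the others, and open circles did not pass. The red points of MYBL1 and E2F7 stand apart from their grey ones in LNCaP, at −2.52 and −1.84 (red) with the grey ones between −0.05 and 0.21; the brightest MYBL1 probe set is dim with siLSD1 there, so its fall is only known to be at least 1.53.

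The androgen experiment asks which transcripts DHT changes in C42B cells first kept without steroids. All 10 factors changed by 0.25 or less on the log2 scale in either direction. The androgen-induced KLK2 and KLK3 rose beside them by 5.19 ± 0.06 and 2.74 ± 0.07 on the log2 scale (SE, adjusted p = 7.5e-11 and 1e-08). Of the 10 factors 3 rose (E2F1, E2F7 and MYBL1) and TFDP1 fell, where 13.4% of all genes rose and 19.4% fell (32.7% in either direction). The number called in either direction is near that share and is not read as a result about the factors. With every 1-gene probe set tested, no further probe set of E2F1, E2F7, MYBL1 or TFDP1 passed with DHT (adjusted p of 0.083 to 0.60). Groups did not overlap for 2 higher factors and 1 lower factor, beside 14% higher and 20.6% lower over all genes. Their median log2 fold change was 0.031, beside 0.013 over all genes. MYBL1 had 9.18, 9.15, 9.11 and 9.13 with DHT, against 8.82, 8.96, 8.79 and 9.01 with vehicle (log2 fold change 0.25 ± 0.06 (SE), adjusted p = 0.0078). E2F7 had 9.65, 9.78, 9.69 and 9.71 with DHT, against 9.40, 9.56, 9.48 and 9.50 with vehicle (log2 fold change 0.22 ± 0.05 (SE), adjusted p = 0.0058). Neither pair of groups overlapped, and the rises came to 19.1% for MYBL1 and 16.7% for E2F7. Both calls ended in the fit of all 20 arrays (adjusted p = 0.20 for MYBL1 and 0.061 for E2F7). E2F1 had 9.14, 9.21, 9.17 and 8.99 with DHT, against 9.01, 8.83, 8.96 and 8.91 with vehicle (log2 fold change 0.20 ± 0.06 (SE), adjusted p = 0.031). DHT replicate 4 lay below the highest vehicle array. The call of E2F1 ended without DHT replicate 1, 2 or 3 and without vehicle replicate 2, 3 or 4 (0.165 to 0.208, adjusted p of 0.0536 to 0.0817). TFDP1 had 11.29, 11.25, 11.24 and 11.24 with DHT, against 11.41, 11.44, 11.42 and 11.40 with vehicle, every DHT array lower (log2 fold change −0.16 ± 0.04 (SE), adjusted p = 0.0057).

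The stromal, endothelial and leukocyte markers summed to 1205 to 1302 on DHT arrays and 1248 to 1465 on vehicle arrays. The part of these markers was not tested.

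The other 6 factors did not pass with DHT, and their groups overlapped. Their 95% intervals ran over −0.17 to 0.05 for E2F2, −0.20 to 0.09 for E2F3, −0.10 to 0.12 for E2F5, −0.06 to 0.18 for E2F8, −0.07 to 0.17 for MYBL2 and −0.14 to 0.08 for FOXM1. Changes beyond 0.20 on the log2 scale lie outside all 6 intervals. FOXM1, for example, had 10.60, 10.59, 10.51 and 10.45 with DHT, against 10.55, 10.60, 10.60 and 10.52 with vehicle. MYBL2 had 9.67, 9.76, 9.74 and 9.63 with DHT, against 9.70, 9.71, 9.64 and 9.55 with vehicle. By their brightest probe sets, E2F7 and MYBL1 were lower with siLSD1 in both lines and higher with DHT, while TFDP1 was lower in all 3 comparisons. Both rises with DHT ended in the fit of all arrays together. No further probe set of E2F7, MYBL1 or TFDP1 passed with DHT. With its probe sets averaged, MYBL1 did not pass in C42B with siLSD1 (−0.074, adjusted p = 0.33). The number of factors called with DHT was near the share over all genes, so this pattern is not read as a result. The difference between the siRNA and DHT effects was not tested.

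Genes that the factors are known to drive moved with them in both siRNA experiments. Their lists were chosen from general knowledge but with earlier results of these data known, so they give no independent support. Of 27 measured E2F targets of G1/S, 21 fell in C42B and 26 in LNCaP, and none rose, with medians of −0.38 and −0.94. Over all genes, 9.39% fell in C42B and 12.5% in LNCaP. MCM2 (−0.61 ± 0.05), MCM5 (−0.53 ± 0.06), both subunits of the replicative helicase, the origin protein ORC1 (−0.51 ± 0.06) and the helicase cofactor CDC45 (−0.50 ± 0.06) led in C42B. In LNCaP the replication initiator MCM10 (−1.51 ± 0.06), the methylation maintenance factor UHRF1 (−1.47 ± 0.11), thymidylate synthase TYMS (−1.47 ± 0.06) and the flap nuclease FEN1 (−1.44 ± 0.06) led. CCNE1, cyclin E1, was the 1 target that did not pass in LNCaP (0.19, adjusted p = 0.12), and it did not in C42B either (0.023, adjusted p = 0.81); it is named here after its values were seen. In LNCaP 1 G1/S target counted as higher with all 20 arrays in 1 fit and without siNTC replicate 1. Of 28 targets of FOXM1 and B-MYB in G2/M, 24 fell in C42B and all 28 in LNCaP, with medians of −0.46 and −1.21. Leading were CENPF (−0.67 ± 0.05), DLGAP5 (−0.64 ± 0.05), TPX2 (−0.62 ± 0.05) and KIF2C (−0.61 ± 0.05) in C42B, and CDC20 (−1.62 ± 0.07), TOP2A (−1.58 ± 0.11), HMMR (−1.51 ± 0.11) and DLGAP5 (−1.49 ± 0.09) in LNCaP, genes of the kinetochore, the spindle and chromosome separation. By the test of the difference, 24 of the 27 G1/S targets and all 28 G2/M targets fell less in C42B than in LNCaP (medians of 0.62 and 0.78). A positive difference was called for 5.56% of all genes.

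With DHT, G1/S targets rose in 8 cases and fell in 4 of 27, with a median of −0.018, where 13.4% of all genes rose and 19.4% fell. The licensing factor CDC6 (0.52 ± 0.04), the phosphatase CDC25A (0.51 ± 0.05), the ribonucleotide reductase subunit RRM2 (0.39 ± 0.04) and FEN1 (0.26 ± 0.04) rose. MCM2 (−0.19 ± 0.06), MCM3 (−0.18 ± 0.05), PCNA (−0.16 ± 0.04) and MCM6 (−0.14 ± 0.03) fell. The 4 falls became 2 without DHT replicate 1, 3 or 4 or vehicle replicate 2 or 3. G2/M targets rose in 2 cases (KIF20A 0.27 ± 0.04 and UBE2C 0.18 ± 0.04) and fell in 3 of 28 (NEK2 −0.25 ± 0.05, CCNA2 −0.21 ± 0.07 and BUB1B −0.19 ± 0.04), with a median of −0.036. Beside the shares over all genes, neither the falls of either list nor the rises of the G2/M list are a result about the lists. The falls of the G2/M list numbered 5 with bright genes only, 6 with quantile normalization and 8 with trend and robust. The shares over all genes in those fits are not given here, so these counts cannot be set beside them.

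**Figure D5:**
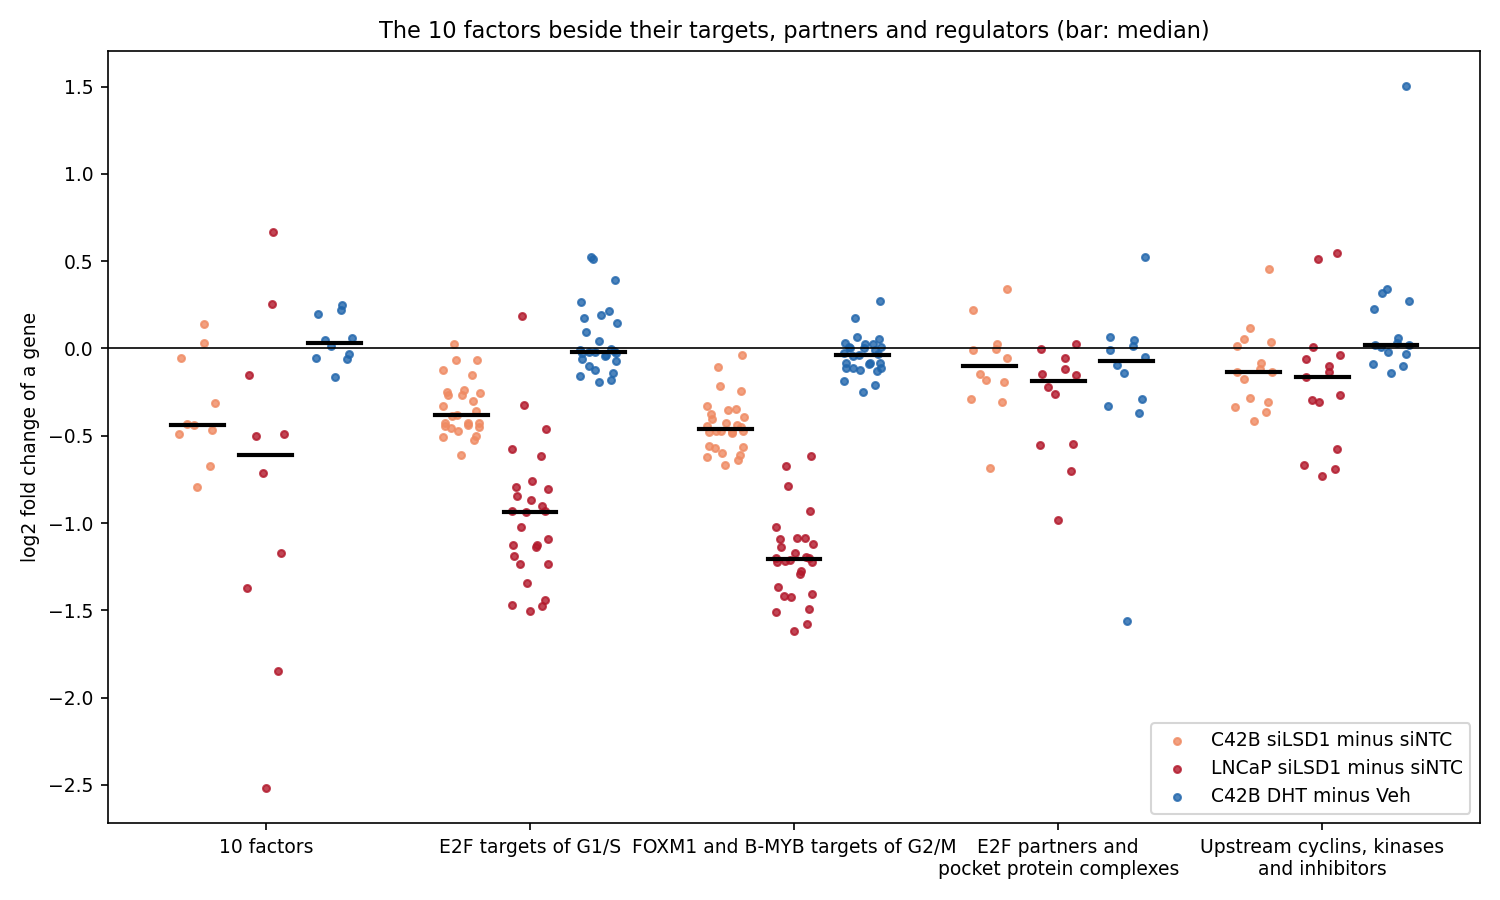
Log2 fold change (y axis) of the 10 factors and of the genes of 4 lists (x axis) in the 3 comparisons, with siLSD1 in orange (C42B) and red (LNCaP) and DHT in blue; bars are medians. The G2/M targets lie at medians of −0.46, −1.21 and −0.036, while partners and upstream regulators spread to both sides of 0 in C42B.

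The partners and pocket proteins of the E2Fs, 12 genes, moved less uniformly. With siLSD1 in C42B 3 fell and 1 rose (9.39% and 8.66% of all genes), and in LNCaP 6 fell (12.5% of all genes), with medians of −0.10 and −0.19. The rise in C42B is near the share over all genes and is not read as a result about the list. RBL1, the pocket protein p107 and itself an E2F target, fell in LNCaP (−0.98 ± 0.14) and did not pass in C42B (−0.14 ± 0.11, adjusted p = 0.42), and the difference passed (0.84 ± 0.19, adjusted p = 0.015). RBL2, p130, which assembles DREAM in resting cells, rose in C42B (0.22 ± 0.05) and was near 0 in LNCaP (0.024, adjusted p = 0.81). No gene of this list was called higher in C42B with the replicate block, with each gene's probe sets averaged, with every probe set tested, or without siLSD1 replicate 2 or 3 or any 1 siNTC array, so that call of RBL2 ended there; 2 genes were called higher without siLSD1 replicate 1, with bright genes only, with trend and robust and with all 20 arrays. RB1 did not pass in C42B (0.34 ± 0.11, adjusted p = 0.079) or LNCaP (−0.057, adjusted p = 0.78). MYB fell in C42B (−0.68 ± 0.12) and in LNCaP (−0.70 ± 0.08), where its siLSD1 mean of 5.99 lay just under the dim level, against 6.70 with siNTC. TFDP2, encoding DP2, fell in both (−0.29 ± 0.05 and −0.22 ± 0.06). In the MuvB core, RBBP4 (−0.55 ± 0.09), LIN37 (−0.26 ± 0.08) and LIN9, dim in both groups, fell in LNCaP, and LIN54, dim in both groups, fell in C42B. E2F4 was near 0 in both lines (−0.0085 in C42B and −0.0057 in LNCaP), and E2F6 did not pass (−0.18 ± 0.05 and −0.15 ± 0.06). With DHT 4 of the 12 fell and 1 rose, where 19.4% of all genes fell, 13.4% rose and 32.7% did either, so the count is not read as a result about the list. MYB (−1.56 ± 0.09), RBL2 (−0.37 ± 0.07), RBL1 (−0.33 ± 0.06) and LIN9 (−0.29 ± 0.07) fell, and LIN52 (0.52 ± 0.05) rose.

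Upstream of the E2Fs, 15 cyclins, kinases and inhibitors were measured. With siLSD1 in C42B 5 fell and 1 rose, and in LNCaP 7 fell and 2 rose, beside 9.39% and 8.66% of all genes in C42B and 12.5% and 13.4% in LNCaP. The numbers of rises are near those shares and are not read as a result about the list. Of the kinases that release E2F from pocket proteins, CDK2 (−0.42 ± 0.05 in C42B and −0.69 ± 0.07 in LNCaP) and CDK4 (−0.31 ± 0.05 and −0.58 ± 0.06) fell in both lines. So did SKP2 (−0.33 ± 0.05 and −0.67 ± 0.09), which marks the inhibitor p27 for breakdown, and CDKN2A (−0.37 ± 0.05 and −0.73 ± 0.07), whose transcripts encode p16 and ARF. The kinase CDK6 did not pass in C42B (−0.12 ± 0.05, adjusted p = 0.14). In LNCaP CDK6 fell to a dim siLSD1 mean of 5.76, against 6.03 with siNTC. The D cyclins CCND1, CCND2 and CCND3 passed in neither line. CDK6 and these cyclins are named here after their values were seen. CDKN1A, encoding the kinase inhibitor p21, rose in both (0.46 ± 0.06 and 0.51 ± 0.05), and CDKN1C, p57, rose in LNCaP (0.55 ± 0.09). With DHT 5 rose and none fell, where 13.4% of all genes rose, 19.4% fell and 32.7% did either. The number called in either direction is near that last share and is not read as a result about the list. Among the 5 were CDK6 (1.50 ± 0.09), CDKN2D (0.34 ± 0.10), CDKN1A (0.32 ± 0.05) and CDK2 (0.27 ± 0.04).

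Across the 20 arrays, with each gene centred on its experiment, FOXM1 correlated with the other 6 factors that fell at 0.823 (E2F2) to 0.965 (E2F8). It correlated at −0.938 with E2F5, −0.588 with E2F3 and 0.336 with E2F1. These points share the group differences described above. Within groups, after removal of the 6 group means, the 45 pairs of factors had a median correlation of −0.018 (range −0.63 to 0.63, 20 above 0). Among 14707 other genes with a bright group, the profiles closest to FOXM1 were those of BIRC5 (r = 0.995), PPIF (0.995) and CDC20 (0.995). Closest to E2F8 were GINS1 (0.990), ANLN (0.988) and CEP55 (0.985), to E2F7 HJURP (0.987), CDCA4 (0.985) and ZWILCH (0.985), and to MYBL2 CCT4 (0.977), PLK4 (0.975) and ASF1B (0.975). E2F1 had no such close neighbour, with CCND3 (0.815), CDKN2D (0.809) and STX18 (0.783) at the top.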

How the data were processed

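Expression in 20 samples of C42B and LNCaP was measured on Affymetrix 3′ arrays. Per the submitters' processing notes, the deposited probe set intensities come from RMA and affy. Their versions were not given in the sources used. They are linear (4.34 to 36333), and log2 was taken here. The labels name labelling kits without assigning them to samples.

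Each of 19775 genes was read from its brightest probe set among those naming 1 gene, with no filter on dim genes. Comparisons used limma 3.58.1 (R 4.3.3; lmFit and eBayes), two-sided, each on its own arrays without covariates, and Benjamini-Hochberg adjustment over all genes. The line difference was a contrast over 12 arrays. The number of arrays limits the precision. The fit was tested on simulated data. Plots were drawn in matplotlib 3.10.9. The factors and lists were chosen with earlier results of these data known. The text names all 10 factors, KDM1A, up to 4 passing genes per list and direction, any E2F partner, and the 3 genes closest in profile to each of 5 factors. Some listed genes are not reported here. Replicate numbers were not used to pair the arrays. Around their group means, same-numbered arrays correlated at −0.0964 to 0.199 and differently numbered ones at −0.241 to 0.192. So few arrays cannot show whether the numbers mark pairs. Alternatives were other summaries of probe sets, a dim filter, other normalizations and variance models, all arrays in 1 fit, the replicate block and each array left out.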

Additional observations from a re-analysis of the deposited data

Results flagged for a closer look

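The effect of siLSD1 differed between the lines for 5 of the 10 factors by the contrast over the 12 siRNA arrays. As log2 fold change in C42B minus that in LNCaP, it was 1.85 for MYBL1, 1.06 for E2F8, 1.05 for E2F7, 0.73 for FOXM1 and −0.52 for E2F5. For MYBL1, 1 of the 4 groups was dim, so its difference is not a measured size at the low end. None of 20 groups of 4 arrays in the androgen experiment (10 factors with DHT and with vehicle) held an array apart from the others by Dixon's test, where chance gives about 1 in 20.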

How the results depend on the processing

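No factor changed direction among calls under any alternative. The count of 7 lower factors in each line held within 1.5 times throughout (5 to 7 in C42B and 7 in LNCaP), without any single array too. Higher factors in LNCaP numbered 2 instead of 1 with quantile normalization, with trend and robust and with all 20 arrays in 1 fit, and 1 to 2 with single arrays left out. With DHT 0 factors instead of 3 were called higher in the fit of all 20 arrays. The replicate block ended the call of E2F1 with DHT (0.20, adjusted p = 0.054) and of no other factor. Whether the replicate numbers mark pairs of arrays is not known. The cause of these changes was not tested. Groups of 3 or 4 arrays and dim probe sets limit all calls.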
